A study of Mus musculus with 24 samples.

Results

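The 10 genes described here are Adipoq, Plin1, Cidec, Lep, Retn, Cfd, Pck1, Fabp4, Lipe and Pparg, genes known for their expression in white fat cells. They were taken by symbol from the 41388 Ensembl genes of the full count table, and all 10 were found. They were followed heart by heart because the amount of fat left on a piece of heart can differ between samples. The study sequenced RNA from heart pieces of wild-type male Balb/c mice (substrain BALB/cAnNCrl) during experimental autoimmune myocarditis (EAM), an inflammation of the heart muscle set off by immunization against cardiac myosin. EAM mice, 8 to 10 weeks old at the start, were injected on days 0 and 7 with 100 μg of a myosin heavy chain α peptide emulsified in SCFA (supplemented complete Freund's adjuvant), and with pertussis toxin (PTX) on day 0. Control mice of the same age received SCFA with PBS in place of the peptide on the same days and the same PTX, so that both groups carried the adjuvant and the toxin. There were 4 EAM and 4 control hearts, one library each, at days 10, 15 and 21 (D10, D15 and D21), 24 in all. EAM hearts were chosen, as far as possible, for the presence of inflammation, and the sources used here do not say which portion of the heart was taken.

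White adipocytes store triglyceride in a single large droplet, release fatty acids from it on demand, and secrete hormones such as adiponectin and leptin. Their differentiation and much of their gene expression depend on the nuclear receptor PPARγ. In the mouse heart, fat cells lie mostly on the outside, around the atria, the groove between atria and ventricles and the great vessels, and few lie among the ventricular muscle cells.

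By role, the members fall into 4 sets. Adipoq (ENSMUSG00000022878, chr16:23146536-23158028), Lep (ENSMUSG00000059201, chr6:29060220-29073877) and Retn (ENSMUSG00000012705, chr8:3655770-3660110) encode the secreted hormones adiponectin, leptin and resistin, and Cfd (ENSMUSG00000061780, chr10:79890853-79892655) encodes adipsin, a secreted protease of the alternative complement pathway. Plin1 (ENSMUSG00000030546, chr7:79720218-79732903) and Cidec (ENSMUSG00000030278, chr6:113424634-113435760) encode proteins of the lipid droplet surface, the first guarding the droplet against lipases and the second driving droplets to fuse. Lipe (ENSMUSG00000003123, chr7:25379527-25398710), Pck1 (ENSMUSG00000027513, chr2:173153048-173159273) and Fabp4 (ENSMUSG00000062515, chr3:10204088-10208576) encode hormone-sensitive lipase, the cytosolic phosphoenolpyruvate carboxykinase that supplies glycerol for triglyceride, and a fatty acid carrier. Pparg (ENSMUSG00000000440, chr6:115360951-115490399) encodes PPARγ itself. Coordinates follow GENCODE M21 on GRCm38, the build of the deposited counts. Fabp4 is also known from capillary endothelial cells and macrophages, and Lipe and Pparg from other cells of the heart, so these 3 are not markers of fat cells alone. Lipe and Pparg each overlap a gene on the opposite strand. The library kit kept strand, but the sources used here do not name the strand setting of the counting.

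Upstream sequence is shown for the 6 members that varied together between hearts and for Lep. Each line gives the 120 bases before the annotated start of the gene, 5′ to 3′ on the strand of the gene, from the RefSeq promoter windows of GRCm38.p6.
Adipoq, chr16:23146416-23146535, plus strand: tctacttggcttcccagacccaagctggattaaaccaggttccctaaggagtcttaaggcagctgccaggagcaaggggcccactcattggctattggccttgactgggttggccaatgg
Plin1, chr7:79732904-79733023, minus strand: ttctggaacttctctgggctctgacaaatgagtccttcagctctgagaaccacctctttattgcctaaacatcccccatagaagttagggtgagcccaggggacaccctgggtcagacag
Cidec, chr6:113435761-113435880, minus strand: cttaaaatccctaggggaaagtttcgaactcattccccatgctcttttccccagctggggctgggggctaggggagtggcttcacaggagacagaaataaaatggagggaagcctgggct
Retn, chr8:3655650-3655769, plus strand: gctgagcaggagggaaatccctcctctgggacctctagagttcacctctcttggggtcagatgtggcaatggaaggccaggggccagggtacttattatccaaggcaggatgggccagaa
Cfd, chr10:79890733-79890852, plus strand: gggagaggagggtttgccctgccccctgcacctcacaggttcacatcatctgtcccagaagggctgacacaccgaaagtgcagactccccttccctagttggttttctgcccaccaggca
Pck1, chr2:173152928-173153047, plus strand: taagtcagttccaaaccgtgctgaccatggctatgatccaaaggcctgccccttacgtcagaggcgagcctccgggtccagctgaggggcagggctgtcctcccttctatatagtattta
Lep, chr6:29060100-29060219, plus strand: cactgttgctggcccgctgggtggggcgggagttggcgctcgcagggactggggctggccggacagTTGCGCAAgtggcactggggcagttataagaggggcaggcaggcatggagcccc
Promoter windows (250 bases before to 50 after a RefSeq start) were found for 9 of the 10 members, all but Fabp4, and were searched on both strands. The C/EBP letters TTGCGCAA, in capitals above, were found only in the Lep window, from 55 to 48 bases before the start, and 0.183% of all 32851 windows held them. The PPAR-RXR repeat AGGTCANAGGTCA, in 0.0396% of windows, and its looser form AGGNCANAGGNCA, in 0.381%, were found in no member's window. The TATA letters TATAAA were found on the opposite strand in 1 of the 3 windows of Pparg and are in 13.6% of windows. No match says only that these letters are not in this window.

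Levels differed widely among the members. Expressed per kilobase of the principal transcript over the 12 control hearts, the mean level was 489 ± 45.0 CPM (TMM-normalized counts-per-million) per kb for Fabp4, 15.8 ± 1.80 for Lipe, 13.0 ± 7.17 for Cfd and 8.47 ± 1.02 for Pparg (SD, n = 12). The next levels were 2.78 ± 1.44 CPM per kb for Cidec, 2.43 ± 1.60 for Adipoq, 1.29 ± 0.861 for Plin1, 1.22 ± 0.961 for Pck1, 1.17 ± 0.616 for Retn and 0.0709 ± 0.0575 for Lep (SD, n = 12). Fabp4 lay above all others in every control heart and Lep below, while the ranges of Lipe, Cfd and Pparg overlapped as neighbours, and so did those of Cidec, Adipoq, Plin1, Pck1 and Retn. The spread between control hearts separated the members in another way. The coefficient of variation was 9.21% for Fabp4, 11.4% for Lipe and 12.1% for Pparg, and between 51.6% for Cidec and 81.0% for Lep for the other 7. Between the lowest and the highest control heart, Fabp4 per kb differed 1.35-fold, Lipe and Pparg 1.46-fold, Adipoq 6.77-fold and Pck1 14.8-fold.

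Total counts per library lay between 15814863 and 24980864, and 3 counts correspond to 0.120 to 0.190 CPM in single libraries, the limit that a count of 0 allows. Such limits cover counting error only. The tissue was heart in all groups: the 10 cardiomyocyte genes summed to between 41937 and 52205 CPM in the 12 control hearts and to between 11627 and 49545 CPM in EAM hearts. The 4 D21 EAM libraries carry another library code in their labels than the other 20, so this code and EAM cannot be told apart at D21. In bulk tissue, fewer cells of a type and less RNA per cell cannot be told apart either.

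The first question was whether adipocyte transcripts differed between EAM and control hearts at the end of the series. At D21, Adipoq was 2.70, 7.16, 2.15 and 2.31 CPM in control hearts 1 to 4 and 0.0986, 0.600, 0 and 0 CPM in EAM hearts 1 to 4. Plin1 was 4.37, 8.02, 3.81 and 2.61 CPM in the controls and 0, 0.600, 0.0669 and 0.0552 CPM in EAM hearts. All 4 EAM hearts lay below all 4 controls for both genes, with EAM heart 2 the highest of its group and control 2 the highest of its own. Pck1 was 3.46, 7.06, 2.54 and 2.56 CPM in the controls and 0.0493, 0.109, 0 and 0 CPM in EAM hearts. Retn was 1.22, 2.21, 1.18 and 1.38 CPM in the controls and 0, 0.382, 0.0669 and 0 CPM in EAM hearts. The groups did not overlap for these 2 either, and EAM heart 2 was again the highest.

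Cidec was 5.03, 8.60, 3.28 and 3.07 CPM in D21 control hearts and 0.0493, 1.36, 0.134 and 0.0552 CPM in D21 EAM hearts. Cfd was 11.8, 23.6, 8.71 and 11.99 CPM in the controls and 0.197, 4.69, 0.401 and 0.110 CPM in EAM hearts. Both genes were lower in every EAM heart than in any control. Lep, the least abundant member, had 15 reads over the 4 controls and 0 over the 4 EAM hearts. Its control level was 4.33-fold above a floor of 3 counts over the EAM group. This figure takes the 15 control reads as exact and is not a lower bound. In all, 7 of 10 members lay lower in every D21 EAM heart than in any control. Of the genes tested at D21, 18.7% did so. Lep was not among the genes tested, and Retn and Pck1 were tested only through their reads in the controls. For Lep, Retn and Pck1 this percentage is therefore not a like background, and their order is given as a description only.

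With edgeR's quasi-likelihood test, adjusted by Benjamini-Hochberg over 15266 genes, Adipoq and Plin1 passed both limits of the study (FDR under 0.01 and at least 2-fold) at D21, among the 7 members with at least 10 reads in hearts of both groups. Of all genes, 1.3% were repressed and 4.3% induced. Adipoq fell by 4.24 on the log2 scale (SE 0.794, edgeR adjusted p = 0.00822) and Plin1 by 4.63 (SE 0.688, edgeR adjusted p = 0.00532), and each had at least 10 reads in 5 of the 8 hearts. For both, the 4 controls alone would have met the filter on low counts. Only EAM heart 2, at 11 reads of each gene, was added to them, so these calls rest on the same controls. Retn and Pck1 had at least 10 reads in the 4 controls alone and so passed the filter on low counts only through the group in which they were high. They are given by their levels and reads, and their calls are not counted. Cidec, at a log2 fold change of -3.59 (SE 0.744, edgeR adjusted p = 0.0113), and Cfd, at -3.35 (SE 0.859, edgeR adjusted p = 0.0210), missed the FDR limit. These fitted values rest on few reads in EAM hearts. Pck1 had 323 reads over the controls against 3 over the EAM hearts, a ratio of 93.2 (95% exact counting interval 31.6 to 454), Adipoq 296 against 13, a ratio of 19.7 (11.3 to 37.5), and Cfd 1156 against 98, a ratio of 10.2 (8.30 to 12.7). These intervals cover counting error only, not the spread between hearts. EAM heart 2 held 11 of the 13 Adipoq and 86 of the 98 Cfd reads, and control 2 held 149 of the 296 control Adipoq reads. Lep did not pass the filter on any day, leaving 9 members in these fits.

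The D21 call of Adipoq lay close to the FDR limit. In the earlier form of edgeR's quasi-likelihood test, Plin1 was called and Adipoq, at an adjusted p of 0.0104, was not, beside 630 induced and 177 repressed of all genes against 657 and 199 in the current form. Limma-voom called Plin1 but not Adipoq (adjusted p 0.0114), beside 80 induced and 135 repressed genes. DESeq2 called Adipoq, Plin1, Cidec and Cfd, beside 1364 and 369 genes. In a fit with replicate blocks these 4 were called as well, beside 645 and 155 genes, with an adjusted p of 0.00669 for Cidec and 0.00987 for Cfd. Without any 1 of the 4 D21 controls 0 members were called, as were 0 of all genes without control 1, 2 or 3 and 2 induced and 23 repressed without control 4. Adjusted p for Adipoq was between 0.0223 and 0.0287 without a control. Without EAM heart 1, none of Adipoq, Plin1, Cidec and Cfd was called, beside 5 induced and 15 repressed genes. Without EAM heart 3, Adipoq, Plin1 and Cidec were called beside 1480 and 538 genes, and without EAM heart 4, Plin1 beside 303 and 143. EAM heart 2 was the 1 EAM heart with at least 10 reads of these genes, so without it they passed the filter through the controls alone, and their log2 fold changes of -6.32 for Adipoq, -5.90 for Cidec and -5.88 for Cfd are values only.

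**Figure D1:**
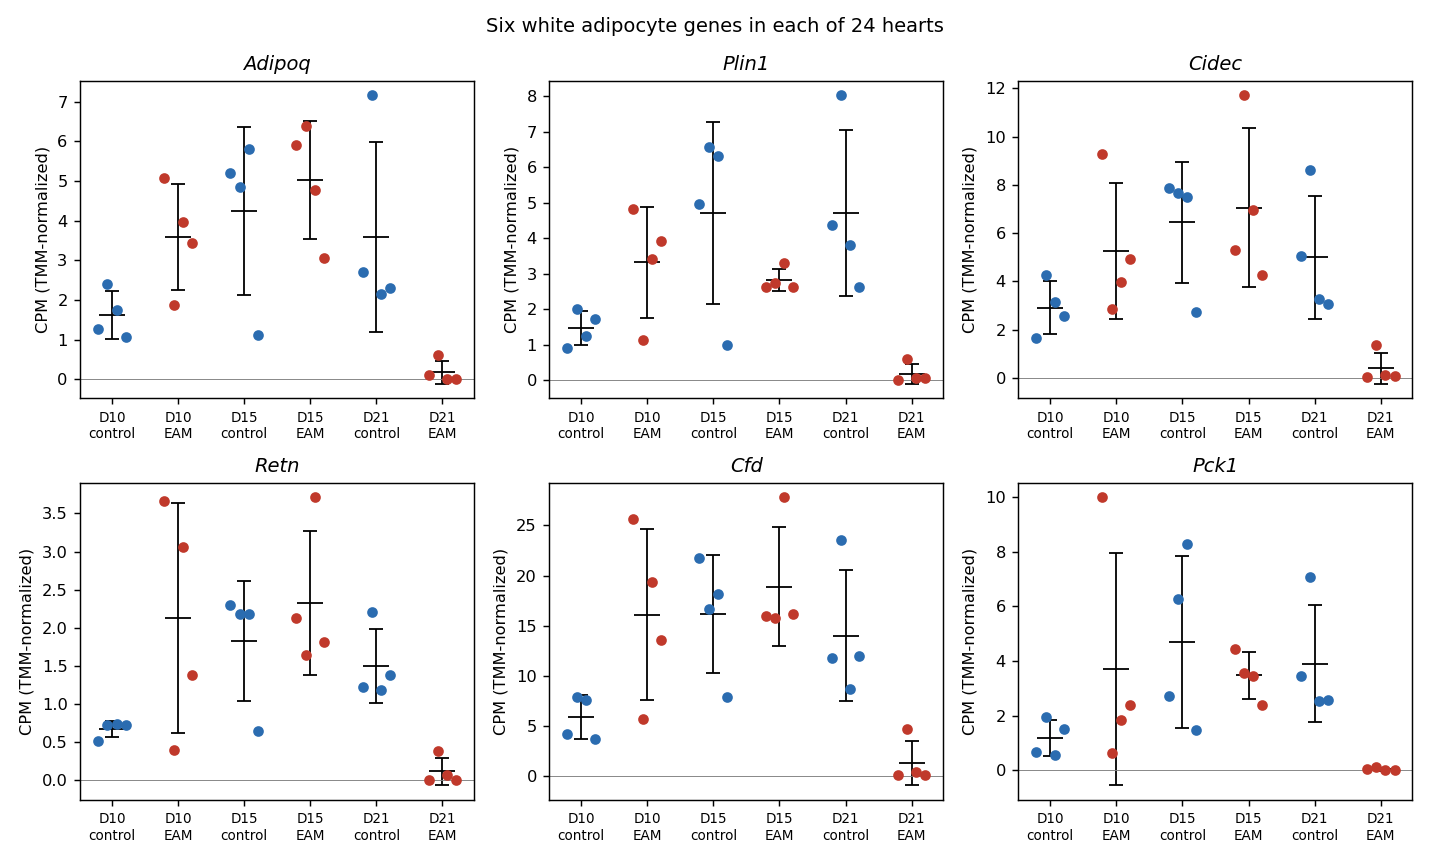
CPM (TMM-normalized) of 6 members in each heart by group, controls in blue and EAM in red, with the hearts of a group in order of their number from left to right, and the group mean ± SD (n = 4) as black bars. D21 EAM hearts lie at or near 0, between 0 and 0.600 CPM for Adipoq against 2.15 to 7.16 in D21 controls, and D10 controls and D15 control 4 lie low among the others.

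Fabp4, Lipe and Pparg did not follow. Fabp4 was 391, 416, 364 and 431 CPM in D21 controls and 344, 447, 521 and 253 CPM in D21 EAM hearts, so the EAM hearts spread to both sides of the controls. Its log2 fold change was -0.02 (SE 0.192), with an adjusted p of 0.939 by edgeR. Pparg was 12.8, 15.1, 12.3 and 14.9 CPM in controls and 11.04, 15.9, 18.6 and 10.4 CPM in EAM hearts, and its groups overlapped as well (log2 fold change 0.04, SE 0.185, edgeR adjusted p = 0.891). Lipe was 47.5, 59.6, 54.1 and 57.1 CPM in controls and 43.4, 38.9, 51.5 and 45.3 CPM in EAM hearts, with a log2 fold change of -0.27 (SE 0.107, edgeR adjusted p = 0.0844). EAM heart 3 lay among the Lipe controls and the other 3 below them.

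Genes of other cell types moved with the D21 difference. The 5 genes of atrial muscle (Myl7, Myl4, Sln, Mybphl and Bmp10) summed to 1535, 2082, 2165 and 1290 CPM in D21 controls and to 6.11, 5.89, 33.7 and 5.02 CPM in D21 EAM hearts, and all 5 were called repressed, beside 1.3% of all genes. Bmp10, a growth factor of the atria, was between 100 and 247 CPM in D21 controls and at most 0.276 CPM in D21 EAM hearts. It thus passed the filter on low counts only through the controls, and its call, counted among the 5, is a value only. The 6 measured mesothelial genes, which mark the outer lining of the heart, did not follow the same order: they summed to 67.5, 15.4, 18.3 and 31.6 CPM in D21 EAM hearts 1 to 4 and to between 26.1 and 33.5 CPM in D21 controls. Of the brown fat genes, Ucp1, the uncoupling protein that defines brown adipocytes, was at 0 in all 4 D21 EAM hearts and 10.9 CPM in D21 control 2, the control with the highest Adipoq, against 0 to 0.306 CPM in the other D21 controls. The 8 tested genes of the brown fat list as a whole were all lower in D21 EAM hearts with 0 called, at a median log2 fold change of -0.71. The part of these other tissues, and of the library code, in the D21 difference of the adipocyte genes was not tested.

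At D15 the picture differed. Adipoq was 5.21, 4.84, 5.80 and 1.12 CPM in the controls and 5.91, 6.38, 4.77 and 3.05 CPM in EAM hearts. Plin1 was 4.95, 6.56, 6.32 and 1.001 CPM in controls and 2.62, 2.73, 3.29 and 2.62 CPM in EAM hearts. Control 4 stood below the other 3 controls for both, and the Plin1 groups overlapped only through it, while those of Adipoq overlapped without it as well. For Adipoq, Plin1, Cidec, Retn, Cfd and Pck1, control 4 was the lowest D15 control, and its 5 atrial genes summed to 189 CPM against 1384 to 1804 CPM in the other 3. With all 4 controls, the log2 fold changes at D15 lay between -0.71 (Plin1, SE 0.425) and 0.37 (Retn, SE 0.377) for these 6 genes, with adjusted p between 0.158 and 0.703 by edgeR. Without control 4, Plin1 was called repressed, at -1.03 with an edgeR adjusted p of 4.2e-04, beside 1888 of 15604 genes repressed. Pck1 was then at -0.68 (edgeR adjusted p = 0.116), and Adipoq, Cidec, Retn and Cfd were between -0.07 and 0.11.

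Fabp4 was the 1 member called at D15, beside 12.9% of 15693 genes repressed and 18.1% induced. It was 490, 393, 449 and 446 CPM in the controls and 203, 256, 244 and 163 CPM in EAM hearts. Every EAM heart lay below every control, as did 35.9% of genes at D15. Fabp4 fell by 1.001 on the log2 scale (SE 0.141, edgeR adjusted p = 1.53e-04), at the 2-fold limit itself. The call was lost on that limit without control 1, 3 or 4 or EAM heart 1 or 4, with fold changes from -0.86 to -0.99 on the log2 scale and adjusted p from 2.92e-04 to 0.00116. Pparg was 14.3, 12.6, 15.0 and 16.0 CPM in controls and 8.16, 11.2, 8.70 and 8.68 CPM in EAM hearts. Its groups did not overlap, and its log2 fold change of -0.62 (SE 0.122, edgeR adjusted p = 0.00135) passed the FDR limit, as did 31.2% of genes repressed, but not the fold limit. Lipe was between 50.3 and 57.5 CPM in controls and between 36.1 and 59.0 CPM in EAM hearts, at -0.17 (SE 0.133, edgeR adjusted p = 0.260).

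Genes of cell types known to express Fabp4 besides fat cells were also read at D15 and D21. The 10 endothelial genes summed to between 1048 and 1205 CPM in D15 EAM hearts and to between 1498 and 1952 CPM in controls. All 10 had a fold change below 0, and 1 was called repressed, no more than the 12.9% of all genes repressed at D15. At D21 the endothelial sum was 1106 to 1742 CPM in EAM hearts and 1790 to 2100 CPM in controls, while Fabp4 was at -0.02 on the log2 scale. The 11 macrophage genes were all called induced at D15 (18.1% of all genes), and 8 of 11 at D21 (4.3%). Of the 10 cardiomyocyte genes, 6 were called repressed at D15 (12.9% of all genes) and 0 at D21 (1.3%). The part of these cell types in the Fabp4 and Pparg values was not tested.

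**Figure D2:**
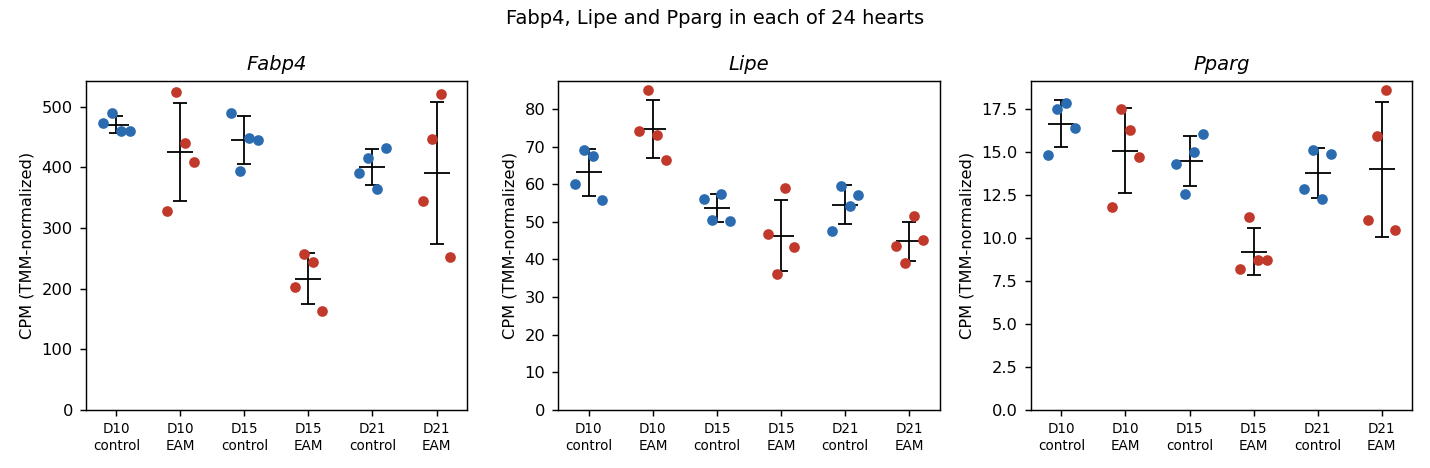
CPM (TMM-normalized) of Fabp4, Lipe and Pparg in each heart by group, controls in blue and EAM in red, with the group mean ± SD (n = 4) as black bars. Fabp4 lies between 163 and 256 CPM in D15 EAM hearts, below the 393 to 490 CPM of D15 controls, and spreads around the controls at D21.

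At D10 the same 6 genes had fold changes above 0, without passing the test. Adipoq was 1.26, 2.41, 1.74 and 1.06 CPM in D10 controls and 5.08, 1.87, 3.96 and 3.43 CPM in D10 EAM hearts. Cfd was 4.23, 7.94, 7.64 and 3.77 CPM in controls and 25.7, 5.72, 19.4 and 13.6 CPM in EAM hearts. EAM heart 1 was the highest and EAM heart 2 the lowest of its group for all 6 genes, and EAM heart 2 lay within the range of the controls, or below it for Retn. EAM heart 1 also had the highest macrophage sum of the D10 hearts, 3302 CPM against 1238 to 2014 in the other EAM hearts and 777 to 1523 in controls, and the lowest cardiomyocyte sum, 27915 CPM against 42847 to 48471 in the other EAM hearts and 44327 to 52205 in controls. The part of these cells in the D10 values was not tested. The groups overlapped for all 10 members. Log2 fold changes were 1.13 for Adipoq (SE 0.347), 1.18 for Plin1 (SE 0.423), 0.85 for Cidec (SE 0.405), 1.67 for Retn (SE 0.598), 1.43 for Cfd (SE 0.440) and 1.69 for Pck1 (SE 0.814). No member was called by edgeR, as in 0% of 15029 genes, and none by DESeq2 or limma-voom, while 5 members, Lipe among them, had an unadjusted p under 0.05, with the smallest adjusted p at 0.328. Among all genes, 9.49% were higher and 5.67% lower at that unadjusted limit. The 5 genes Adipoq, Plin1, Retn, Cfd and Pck1 were at least 2-fold higher, as were 4.76% of genes. Without EAM heart 1, Pck1 was at 0.44 and Cidec at 0.40. Fabp4, Lipe and Pparg were at -0.16 (SE 0.130), 0.23 (SE 0.0988) and -0.16 (SE 0.133) at D10.

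**Figure D3:**
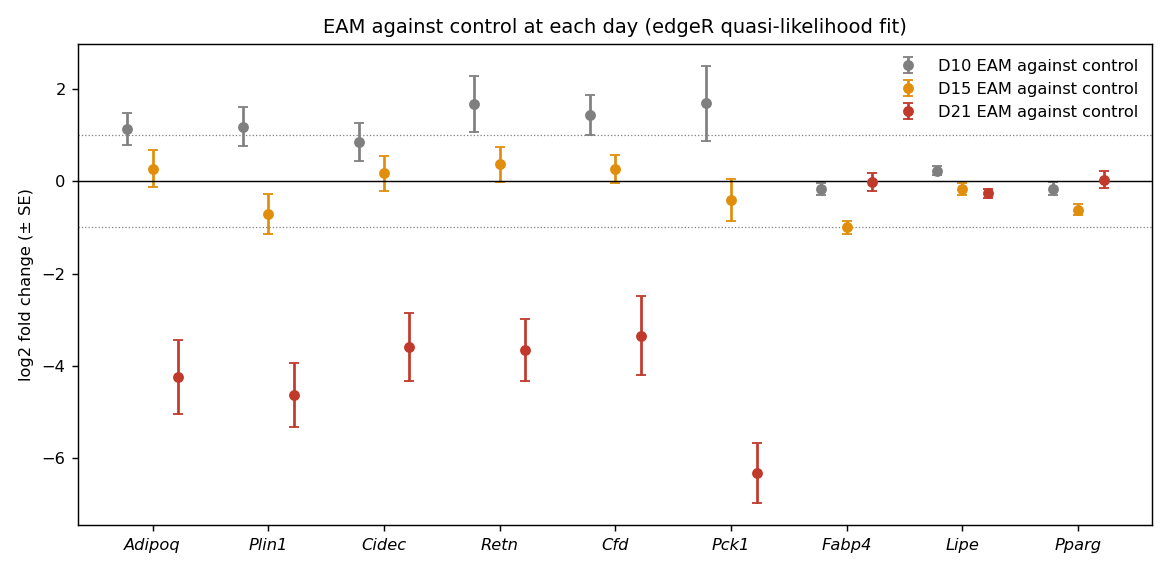
Log2 fold change of EAM against control hearts ± SE for the 9 tested members at D10 (grey), D15 (orange) and D21 (red), from edgeR's quasi-likelihood fit of each day's 8 hearts, with dotted lines at 2-fold. The 6 genes from Adipoq to Pck1 lie above 0 at D10, while Fabp4, Lipe and Pparg stay within about 2-fold on every day. At D21, Adipoq, Plin1, Cidec and Cfd lie between -3.35 and -4.63. Retn and Pck1, drawn at -3.65 and -6.32 at D21, passed the filter on low counts there only through the controls, so these 2 are values only.

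The controls of the 3 days were also compared with each other. Adipoq averaged 1.62 ± 0.601 CPM in D10 controls, 4.24 ± 2.12 in D15 controls and 3.58 ± 2.40 in D21 controls (SD, n = 4 each). Plin1 averaged 1.47 ± 0.485, 4.71 ± 2.57 and 4.70 ± 2.33 CPM, and Pck1 1.18 ± 0.666, 4.68 ± 3.15 and 3.91 ± 2.15 CPM, in the same order. The later controls were the higher ones on average, with D15 control 4 at the level of the D10 controls. Between D15 and D10 controls, Plin1 differed by 1.68 (SE 0.506) and Pck1 by 1.98 (SE 0.613) on the log2 scale, and between D21 and D10 controls by 1.68 (SE 0.502) and 1.72 (SE 0.617). No member was called in either comparison by edgeR, DESeq2 or limma-voom. Of the 16318 genes in edgeR's fit of all 24 hearts, 0.00613% were called induced and 0.0735% repressed between D15 and D10 controls, and 0.153% and 0.116% between D21 and D10 controls. At an unadjusted p under 0.05 there were 6 members between D15 and D10, beside 3.58% of genes higher, and 4 between D21 and D10, beside 7.66%. At least 2-fold higher were 6 members at D15 and 5 at D21, beside 1.48% and 2.28% of genes. Plin1, Retn, Cfd and Pck1 were higher in every D21 control than in any D10 control, as were 8.8% of genes, and Cfd in every D15 control, as were 3.43%. Fabp4 was 364 to 431 CPM in D21 controls and 459 to 490 CPM in D10 controls, at -0.23 on the log2 scale (edgeR adjusted p = 0.660).

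The atrial and mesothelial genes were also low in D10 controls. The atrial sum was between 160 and 390 CPM in D10 controls, between 446 and 1563 CPM in D10 EAM hearts and between 1290 and 2165 CPM in D21 controls. The mesothelial sum was between 8.91 and 13.6 CPM in D10 controls and between 22.6 and 56.6 CPM in D10 EAM hearts. D15 control 4, with 189 and 15.5 CPM, lay with the D10 controls on the atrial sum and near them on the mesothelial one. When the 12 controls of all days stood in for those of D10, an alternative added after the data were seen, Plin1 was at -0.11, Cidec at 0.17, Adipoq at 0.20, Pck1 at 0.26, Cfd at 0.44 and Retn at 0.71 on the log2 scale, with edgeR adjusted p from 0.224 to 0.886. This exchange changed the comparison for all genes, with 636 of 15545 called induced and 52 repressed, against 0 and 0 with the D10 controls. The part of atrial or outer heart tissue in these differences was not tested.

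A change of the EAM effect between days was tested in the fit of all 24 hearts, where the days share one estimate of the spread. From D15 to D21 the effect changed for 7 of the 9 tested members, 6 downwards beside 0.968% of 16318 genes and 1 upwards beside 2.84%. The change was -4.50 for Adipoq (SE 0.890, edgeR adjusted p = 0.00212) and -3.91 for Plin1 (SE 0.895, edgeR adjusted p = 0.00416). It was -3.74 for Cidec, -4.00 for Retn, -3.58 for Cfd and -5.91 for Pck1, with adjusted p from 0.00316 to 0.00558 by edgeR. Fabp4 changed by 1.003 in the other direction (SE 0.246, edgeR adjusted p = 0.00620), again at the fold limit, and it was not called by DESeq2 or limma-voom, with either other scaling or without the filter on low counts. Without D21 EAM heart 3 only Adipoq was called, beside 164 genes higher and 83 lower of all genes against 464 and 158 with all hearts, and without D21 EAM heart 1 there were 4, beside 536 and 143. With all hearts, the 5 atrial genes were all called lower from D15 to D21 (median -6.59 on the log2 scale). Of the 10 cardiomyocyte genes, 5 were called higher. The part of these tissues, and of the library code, in the members' change was not tested. From D10 to D15, 0 of 9 members were called by edgeR, beside 5.3% of genes with a higher and 7.56% with a lower effect, and 0 by DESeq2 and limma-voom. All 9 changes from D10 to D15 were below 0, the furthest being -2.12 for Pck1 (SE 0.811) and -1.93 for Plin1 (SE 0.686), and 5 of the 9 had an unadjusted p under 0.05, beside 30.6% of genes lower at that limit. Without a fold limit Fabp4 alone was called, at -0.89 (SE 0.246, edgeR adjusted p = 0.00715), beside 17% of genes. With scaling to total counts the split over all genes moved from 865 higher and 1234 lower to 996 and 859 for D15 minus D10, and from 464 and 158 to 247 and 245 for D21 minus D15. These comparisons share the D15 hearts.

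Lep is given by its reads, since it did not pass the filter on low counts. When fitted without that filter it was called in none of the comparisons, with the smallest edgeR adjusted p, 0.0111, at D15. It had 7 reads over the D10 controls, 30 over the D15 controls and 15 over the D21 controls, against 5, 5 and 0 reads in the EAM hearts of the same days. In the D15 controls it was 0.469, 0.591, 0.518 and 0.0589 CPM, with control 4 again the lowest. The ratio of D15 controls to D15 EAM hearts was 8.47 (95% exact counting interval 3.25 to 28.0). The D15 EAM hearts were at 0.167, 0, 0.0422 and 0 CPM, so the groups overlapped through control 4, and the interval covers counting error only. Adipoq at D15 had 313 control and 516 EAM reads, a control to EAM ratio of 0.856 (0.742 to 0.987). At D10 the interval of the Lep ratio, 0.422 to 6.17, holds 1, so a difference was not detectable at this depth.

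Heart by heart, the members differed in how far they varied with Adipoq. Over the 12 control hearts, log2(CPM + 1) of Cidec correlated with that of Adipoq at r = 0.956 (Spearman rho 0.937), Retn at 0.938 (0.839), Cfd at 0.935 (0.902), Plin1 at 0.924 (0.902) and Pck1 at 0.862 (0.881). Their permutation p for r was between 1e-05, the smallest that 100000 resamples can give, and 5.1e-04, with adjusted p from 6e-05 to 0.00184 over 18 relations. The adjusted permutation p for rho was between 5.4e-04 and 0.00482. Without the 2 hearts farthest from the median of Adipoq, r was between 0.753 (Pck1) and 0.941 (Cidec) for these 5. With the mean of each day taken off, r was between 0.785 (Pck1) and 0.939 (Cidec), and without the 2 farthest hearts of that form between 0.566 (Pck1) and 0.876 (Cfd). Over all 12 controls of that form Pck1 missed the threshold by rho (0.664, adjusted permutation p 0.0559). Lep correlated at 0.712 (rho 0.629, adjusted permutation p 0.0281 for r and 0.0731 for rho) and at 0.817 without the 2 farthest hearts. With the day means taken off, its r was 0.627, and 0.287 without the 2 farthest hearts of that form. Fabp4 (r = -0.169, rho -0.168), Lipe (-0.0434 and 0.0909) and Pparg (-0.340 and -0.301) had adjusted permutation p from 0.334 to 0.893 for r. With the day means taken off, Lipe was at r = 0.597 and rho 0.706, with adjusted permutation p of 0.0695 and 0.0399, so its rho passed the threshold in that form.

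The 4 D21 EAM hearts stood apart from the other EAM hearts, so r over all 12 EAM hearts is given only with the mean of each day taken off. It was then 0.841 for Cidec (rho 0.837), 0.770 for Plin1 (0.753), 0.732 for Cfd (0.7075), 0.720 for Pck1 (0.7895) and 0.670 for Retn (0.468), with adjusted permutation p from 0.0054 to 0.0290 for r over 9 relations. By rho, Retn missed the threshold (adjusted permutation p 0.214) and the other 4 passed it. Without the 2 farthest hearts r was between 0.423 (Retn) and 0.812 (Cidec), so the relation of Retn rests in part on them. Lep, Fabp4, Lipe and Pparg were at -0.128, 0.0545, -0.450 and -0.0663, with adjusted permutation p from 0.2102 to 0.865. Over the 8 EAM hearts of D10 and D15, in place of all 12 and chosen after the data were seen, Cidec correlated with Adipoq at r = 0.828 (rho 0.857, exact permutation p = 0.0107 for both, adjusted 0.0281 and 0.0321). Without the 2 farthest hearts r was 0.589, so that relation rests in part on them. Pck1 was at 0.769 (rho 0.810, adjusted exact permutation p 0.0637 and 0.0560), and Cfd, Retn and Plin1 were at 0.703, 0.654 and 0.576 with adjusted exact permutation p up to 0.198. With the mean of each day taken off, r was 0.802 for Cidec, which missed the threshold (adjusted exact permutation p 0.0622), and 0.788 for Pck1, which passed it (0.0274). A difference between control and EAM hearts in these relations was not tested.

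Ordered by the sum of Adipoq, Plin1, Cidec, Lep and Retn, the members closest to fat cells alone, the hearts ran from 26.2 CPM in D21 control 2 to 0.110 CPM in D21 EAM 4. The 4 lowest were the D21 EAM hearts, at 2.94 CPM in heart 2 and at most 0.267 CPM in the others. Next came D10 control 1 at 4.51, D15 control 4 at 5.54, D10 control 4 at 6.21, D10 EAM 2 at 6.35 and D10 control 3 at 6.91 CPM. Ucp1 had 0 reads in 10 of the 24 hearts and was highest in D21 control 2, at 10.9 CPM, and D15 control 2, at 4.31 CPM, both among the 5 highest hearts in the adipocyte sum. The order was not that of the atrial sum throughout: D15 EAM 2 had an adipocyte sum of 22.5 CPM, among the 3 highest, with an atrial sum of 265 CPM, and D21 control 3 had the highest atrial sum, 2165 CPM, with an adipocyte sum of 10.6 CPM.

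**Figure D4:**
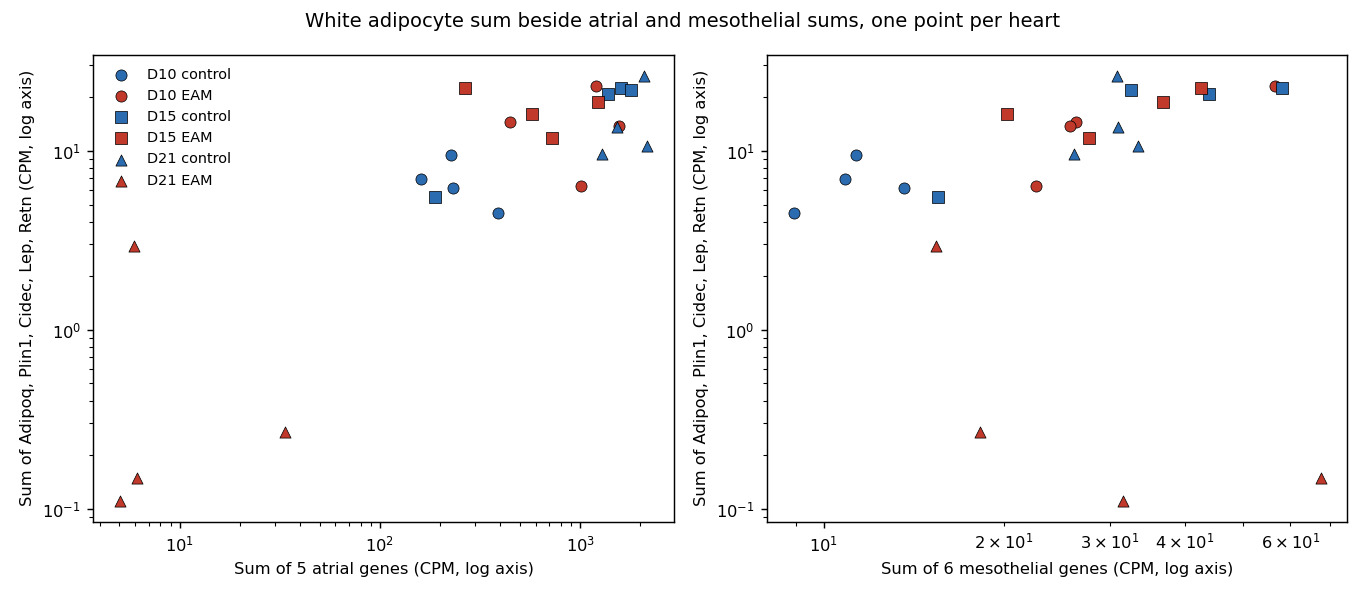
Each point is 1 heart, with the summed CPM of Adipoq, Plin1, Cidec, Lep and Retn on the vertical log axis, against the summed CPM of 5 atrial genes (left) and of 6 mesothelial genes (right) on log axes, controls in blue, EAM in red, and D10, D15 and D21 as circles, squares and triangles. The 4 D21 EAM hearts lie lowest, with atrial sums of 5.02 to 33.7 CPM, but D21 EAM heart 1 has the highest mesothelial sum, 67.5 CPM.

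The genes whose levels followed the members most closely were sought among the 14282 genes averaging 1 CPM or more. Pearson's r of log2(CPM + 1) with the mean of Adipoq, Plin1 and Cidec is given as a description over all 24 hearts, which include the D21 EAM hearts that stand apart, followed by its value over the 12 controls. Car3, carbonic anhydrase 3, an abundant enzyme of fat and muscle, came first at 0.960 (0.979 in controls), followed by Cyp2e1, a cytochrome P450, at 0.952 (0.943) and Cdo1, a cysteine dioxygenase, at 0.921 (0.949). Mean levels of these 3 were 29.9, 11.6 and 7.89 CPM in controls and 1.62, 0.993 and 2.47 CPM in D21 EAM hearts. Scd1, which makes monounsaturated fatty acids, was at 0.839 (0.912). The other 6 were Mybphl (0.866), Sln (0.863), Hamp (0.847), Myl7 (0.841), Myl4 (0.839) and Sbk3 (0.834), of which Mybphl, Sln, Myl7 and Myl4 are on the atrial list. Over the controls alone these 6 were at 0.763 to 0.802, below Car3, Cyp2e1, Cdo1 and Scd1. Of the members outside that mean, Retn was at 0.904, Cfd at 0.952, Pck1 at 0.9255, Lep at 0.509, Lipe at 0.228, Fabp4 at -0.147 and Pparg at -0.196 over 24 hearts.

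Other genes of fat metabolism, which heart muscle and other cells also express, are described by list, beside 18.1% of all genes induced and 12.9% repressed at D15 and 4.3% and 1.3% at D21. Of 10 lipid droplet genes beside Plin1 and Cidec, 2 were induced and 4 repressed at D15 and 0 were called at D21 by edgeR, with medians of -0.81 and -0.24 on the log2 scale beside 0.02 and -0.01 over all genes. Plin2, the droplet coat protein of cells other than fat cells, rose from 80.7 ± 1.86 to 250 ± 92.6 CPM at D15, and Mgll, monoglyceride lipase, fell from 264 ± 29.0 to 93.6 ± 11.3 CPM (SD, n = 4 each). Hilpda, an inhibitor of droplet lipolysis, rose by 1.5003 on the log2 scale at D15, and Abhd5, an activator of triglyceride lipase, was at -0.71, short of 2-fold. Of 16 genes of fatty acid and triglyceride synthesis, 2 were induced and 6 repressed at D15 (18.1% and 12.9% of all genes) and 1, Scd1, was repressed at D21, at -2.20 on the log2 scale. At D15, Acly (1.32) and Scd2 (1.51), of fatty acid synthesis, were induced and Me1 (-1.14) and Acsl1 (-1.67), of NADPH supply and fatty acid activation, were repressed.

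Of 12 transcription factors of fat cell differentiation beside Pparg, 3 were induced and 2 repressed at D15 (18.1% and 12.9% of all genes) and 1 was induced at D21 (4.3%). Cebpa rose from 21.6 ± 2.55 to 101 ± 15.1 CPM at D15 and from 22.1 ± 4.24 to 68.4 ± 29.9 CPM at D21, and Cebpb rose by 2.74 on the log2 scale at D15 (SD, n = 4 each). Rxrg fell by 2.03 at D15, while Rxra, a dimer partner of PPARγ, was at -0.52 and short of 2-fold. C/EBPα and C/EBPβ are also known from myeloid cells, and the 11 macrophage genes summed to between 3759 and 5670 CPM in D15 EAM hearts against 691 to 814 CPM in controls. The part of these cells in the values was not tested. At D21 Cebpa was called induced, at 1.66 on the log2 scale (SE 0.324, edgeR adjusted p = 0.00933).

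Of 14 other secreted products of fat and adipokine receptors, 5 were induced and 3 repressed at D15 (18.1% and 12.9% of all genes). Angptl4, an inhibitor of lipoprotein lipase, rose from 9.75 ± 3.40 to 86.1 ± 28.1 CPM (SD, n = 4 each). Rarres2, which encodes chemerin, rose by 1.34, and Cdh13, a receptor of adiponectin, fell by 1.16 on the log2 scale at D15. At D21, 1 of the 14 was called, Sfrp5, a secreted inhibitor of Wnt signalling, repressed by edgeR at -2.23 and named here after its value was seen. Of 16 genes of lipid and glucose uptake and of insulin and adrenergic signalling, 15 were tested at D15, with 2 induced and 6 repressed (18.1% and 12.9% of all genes), and 14 at D21, with 1 induced (4.3%). Ffar2, a receptor of short-chain fatty acids that leukocytes also carry, was the induced gene on both days, together with Pde3b at D15. It averaged 0.179 and 0.204 CPM in D15 and D21 controls, against 5.56 and 2.15 CPM in EAM hearts. Ffar2 thus passed the filter on low counts only through the EAM hearts, and its calls are values only. Apart from it, Pde3b alone was induced at D15 and no gene of this list at D21. Irs1, a substrate of the insulin receptor, fell by 1.42 and Cav1, the caveolar coat protein, by 1.05 on the log2 scale at D15. Of the 12 brown fat genes, 8 were tested at D15, where 5 were repressed, among them Prdm16 (-1.40), Cpt1b (-1.61) and Ppargc1a (-1.45), while Cidea was at -0.88 and short of 2-fold. Heart muscle is also known to express Ppargc1a and Cpt1b.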

How the data were processed

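RNA was sequenced from 24 mouse hearts, with 4 EAM and 4 control hearts per day (D10, D15, D21). The values are raw read counts per gene as deposited by the authors, who used HISAT2 2.0.4 for alignment to GRCm38, removed duplicates with Picard and counted reads on Ensembl genes with featureCounts. Total counts ran from 15814863 to 24980864 per library. The 92 spike-in entries held 0 reads, and 0 columns went unused. Samples were grouped by their labels. The study's methods describe separate mice, but not cages or days of handling shared between them.

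Each day was fitted on its own 8 hearts with edgeR 4.0.16 (R 4.3.3) after TMM scaling, keeping a gene where 4 or more hearts had 10 or more reads. Genes were called at a Benjamini-Hochberg FDR under 0.01 and a change of at least 2-fold. Changes of the EAM effect and differences between controls came from a fit of all 24 hearts. The quasi-likelihood test was used in its current form, while the installed version of edgeR applies the earlier form unless told otherwise, and both are reported. The standard error was taken as the absolute log2 fold change over the square root of F. DESeq2 1.42.0, limma-voom (limma 3.58.1), other scalings, no filter, no fold limit, a replicate block and each library left out in turn were the alternatives, and scripts were tested on simulated data. Correlations used log2(CPM + 1) with two-sided permutation tests (100000 resamples, or all 40320 orders for 8 hearts), in Python 3.11.15 with scipy 1.17.1. Replicate numbers were checked for pairing by correlating the deviations of same-numbered EAM and control hearts from their group means. All 4 pairs exceeded 0.1 at D21 (0.107 to 0.316), 2 of 4 at D10 (0.383 and 0.430) and 0 of 4 at D15. Hearts of different numbers were not compared, so these values do not show that the numbers mark pairs. The labels do not say what a number marks. The main tests used no pairs, and the replicate block is given as an alternative only.

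The members and the gene lists were chosen with earlier results of these data known. Besides the 10 members, the text names the 4 tested genes of each other adipocyte list with the smallest p at D15, the 10 genes most like the members over 24 hearts, and genes it says were chosen after their values were seen. One gene that this rule names is not reported here.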

Additional observations from a re-analysis of the deposited data

Results flagged for a closer look

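Within groups of 4 hearts, the gap of the highest or lowest heart to its neighbour exceeded Dixon's 95% critical value in 10 of 59 gene-and-group sets of the members, where chance flags about 1 in 20 sets. The sets are not independent, since the genes were measured in the same hearts, and 4 of the 10 are values of D21 EAM heart 2. In D21 EAM heart 2, the highest of its group, Adipoq stood at 0.600 CPM, Plin1 at 0.600 CPM, Cidec at 1.36 CPM and Cfd at 4.69 CPM. In D21 control 2 Adipoq stood out at 7.16 CPM. D15 control 4 was low for Cidec (2.71 CPM) and Retn (0.648 CPM), and D15 EAM heart 3 was high for Plin1 (3.29 CPM) and Cfd (27.8 CPM). Retn in D10 control 1 was low, at 0.514 CPM.

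The EAM effect differed between D21 and D15 by edgeR's interaction test for 7 of 9 tested members. Of these, 6 were lower, beside 0.968% of 16318 genes, and 1 was higher, beside 2.84%. With a library left out, 1 to 7 members were called, and the D21 EAM libraries carry another library code. The difference was -4.50 for Adipoq, -3.91 for Plin1, -3.74 for Cidec, -4.00 for Retn, -3.58 for Cfd and -5.91 for Pck1 on the log2 scale, and 1.003 for Fabp4. Fabp4, at the fold limit, was not called by DESeq2 or limma-voom.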

How the results depend on the processing

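At D21, 4 members passed both limits, 2 in the earlier form of edgeR's quasi-likelihood test and 0 to 6 with 1 library left out. These counts include Retn and Pck1, which passed the filter only through the controls, and without both they are 2, 1 and 0 to 3, leaving aside the fit without D21 EAM heart 2, where the other 4 passed it the same way. Of all genes, 657 were induced and 199 repressed at D21, and 630 and 177 in the earlier form. With 1 library left out these were 0 to 1480 and 0 to 538. At D15, 1 member was called, 0 with total counts, 0 with the 12 controls of all days, 2 without a fold limit and 0 to 1 with 1 library left out. Induced and repressed genes of the whole table were 2839 and 2024 at D15, and 3200 and 1556 with total counts. They were 2839 and 2142 with the 12 controls and 5217 and 4904 without a fold limit. With 1 library left out they were 2330 to 2822 and 1673 to 2244. Total counts moved the median log2 fold change of all genes at D15 from 0.02 to 0.17. For the change of the EAM effect, D15 minus D10 gave 0, 1 without a fold limit and 0 to 1 with a library left out (1 without D15 control 4), and D21 minus D15 gave 7, and 1 to 7 with a library left out (1 without D21 EAM heart 3, where 164 and 83 of 16307 genes were called higher and lower, against 464 and 158 of 16318). For D15 minus D10, 865 genes were higher and 1234 lower. These were 1534 and 2780 without a fold limit, and 590 and 1074 without D15 control 4. With the replicate block, which rests on a pairing that the labels do not give, 0, 1 and 6 members were called at D10, D15 and D21. The 2 added at D21 were Cidec and Cfd. Induced and repressed genes of the whole table were then 1 and 0 at D10, 2780 and 2005 at D15, and 645 and 155 at D21.

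With 1 library left out, log2 fold changes crossed 0 for Adipoq (-0.0210 to 0.48), Cidec (-0.17 to 0.38) and Pck1 (-0.68 to 0.0400) at D15 and for Fabp4 (-0.18 to 0.14) and Pparg (-0.12 to 0.15) at D21, none of them called. With the 12 controls of all days, added once the data had been seen, the sign changed for Plin1 (-0.11) and Pparg (0.0155) at D10, Pck1 (0.12) at D15 and Pparg (-0.0730) at D21, and with limma-voom for Pparg at D21 (-0.0025). With group means taken off, the control correlation with Adipoq was 0.627 for Lep, no longer past the threshold, and turned positive for Fabp4 (0.204), Lipe (0.597, with a rho of 0.706 past the threshold, and 0.0520 with total counts) and Pparg (0.0486). Over the 8 EAM hearts Cidec was then at 0.802 and missed the threshold, and Pck1 passed it at 0.788, as with total counts (0.791) and a pseudocount of 0.1 (0.820). The causes were not tested. Few reads limit Lep on every day and the 6 low members in D21 EAM hearts.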
